A study of Mus musculus with 4 samples.

Results

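NF-κB is a family of transcription factors that act as pairs of subunits, and the IκB family are the proteins that hold those pairs inactive or steer them on DNA. The 10 mouse genes described here are the 5 subunits (Nfkb1, Nfkb2, Rela, Relb and Rel), the 3 cytoplasmic inhibitors (Nfkbia, Nfkbib and Nfkbie) and 2 nuclear members of the IκB family (Nfkbiz and Bcl3). They were chosen by symbol, matched to the gene identifiers of the deposited tables, and all 10 were listed and tested, among 18872 genes listed and 13608 tested.

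The RNA libraries were made from primary epithelial cells isolated from the colon of mice that had received 2% dextran sulfate sodium (DSS), which damages the colon epithelium, for 3 days. The wild-type group had 2 libraries. The other group, of genotype EZH2-IEC-/- and also given DSS, had 2 libraries and is called knockout below; the series describes it as without EZH2, the Polycomb enzyme that methylates histone H3, in intestinal epithelial cells. The labels give neither the promoter that drives the deletion nor the age, sex or strain of the mice, nor whether replicates stand for different animals, so p-values reflect the spread between libraries, which may be technical. Libraries without DSS were not analysed here, and every difference is between genotypes under DSS.

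In resting cells the inhibitors IκBα (Nfkbia), IκBβ (Nfkbib) and IκBε (Nfkbie) keep dimers such as p50 with RelA in the cytoplasm. Signals from TNF, interleukin-1 or Toll-like receptors activate the IKK kinase complex, the inhibitors are phosphorylated and degraded, and the dimers enter the nucleus, where Nfkbia itself is among their best known targets. A slower noncanonical route through NIK (Map3k14) and IKKα processes the Nfkb2 product to p52, which pairs with RelB. In the gut epithelium the pathway is known both for inducing chemokines and antimicrobial genes and for protecting the epithelium against cell death.

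The κB consensus, a motif of 10 bases read on both strands, was looked for in the 250 bases before each annotated start, because these genes include known targets of the pathway. The RefSeq promoter table (GRCm38.p6) held 7 of the 10 genes, and 4 of them, Nfkbia, Nfkb2, Rel and Nfkbie, had a match. Nfkb1, Relb and Nfkbiz were not searched. Rela, Nfkbib and Bcl3 had no match in this window. Of all 32851 promoters in the table, 3.9% held a match, and of the 13742 promoters of tested genes, 4.55%. The 130 bases before the start of these 4 genes follow, on the strand of the gene, with every base of a match in capitals. They are printed because they held a match, so they do not set genes that rose against the others. Of these 4 only Nfkbia rose in the knockout, while Nfkbib and Bcl3, without a match, rose too.
Nfkbia, GRCm38.p6 chr12:55492648-55492777, minus strand: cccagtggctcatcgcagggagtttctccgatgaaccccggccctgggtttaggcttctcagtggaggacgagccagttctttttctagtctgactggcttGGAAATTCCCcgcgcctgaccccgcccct
Nfkb2, the first of 3 starts, GRCm38.p6 chr19:46304607-46304736, plus strand: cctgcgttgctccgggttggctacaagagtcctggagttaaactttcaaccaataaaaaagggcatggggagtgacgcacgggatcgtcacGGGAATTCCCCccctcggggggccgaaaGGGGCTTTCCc
Rel, GRCm38.p6 chr11:23770970-23771099, minus strand: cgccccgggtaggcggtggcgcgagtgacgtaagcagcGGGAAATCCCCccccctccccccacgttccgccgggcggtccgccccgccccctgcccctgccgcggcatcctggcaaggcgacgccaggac
Nfkbie, GRCm38.p6 chr17:45555570-45555699, plus strand: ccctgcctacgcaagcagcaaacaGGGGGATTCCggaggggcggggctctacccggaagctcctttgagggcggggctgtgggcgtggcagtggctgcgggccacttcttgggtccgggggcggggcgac
In Nfkbia the match lay 29 to 20 bases before the start and read GGGAATTTCC on the strand opposite to the gene. In Nfkb2 overlapping matches on both strands lay 39 to 29 bases before the start, with a further one at 11 to 2 bases. The other 2 Nfkb2 starts had 1 match each, further upstream in the 250 bases. In Rel, overlapping matches lay 92 to 82 bases before the start, and in Nfkbie 1 match lay at 106 to 97 bases. A match is a sequence description, and binding was not measured.

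Estimated counts per library summed to between 5037367 and 5446998. Ezh2, the targeted gene, had 105 and 102 counts in the wild-type libraries against 86 and 83 in the knockout ones, and did not pass the test (log2 fold change -0.27 ± 0.17, edgeR adjusted p = 0.217); this sum over all exons neither checks nor contradicts the labels. Epithelial markers were high in every library: the summed FPKM of Epcam, Cdh1, Krt8, Krt18, Krt19, Krt20, Vil1 and Cdx2 was 8145.5 and 8492.1 in the wild-type libraries against 9441.1 and 9810.7 in the knockout ones. Of these 8, 6 rose, while Epcam and Cdh1 fell. Markers of other cells were detected too. All marker counts here stand beside 23.0% of all tested genes that rose and 20.8% that fell. Of 11 listed T and NK cell markers, 9 rose, and their summed FPKM was 24.8 and 25.3 in the wild-type libraries against 86.8 and 86.4 in the knockout ones. The filter on low counts bears on this count. Gzma, Gzmb and Nkg7 had 3 and 8, 4 and 1, and 0 and 4 counts in the wild-type libraries. They, Cd3e and Cd3g reached the level of the filter in both knockout libraries but not in both wild-type ones. Of 12 macrophage and dendritic cell markers, 9 rose, with sums of 369 and 390 against 521 and 582, the highest being Lyz2 and C1qa. Of 8 B and plasma cell markers 3 rose and 3 fell, with sums of 305 and 281 against 408 and 475; the plasma cell gene Jchain rose, and Cd79a and Cd79b were among those that fell. Neutrophil markers other than Ly6g, which only the replicate 2 tables list, summed to 6.95 and 10.7 against 156 and 132, and in knockout nearly all of that was S100a8 and S100a9; Mpo and Elane were not listed. Of 10 fibroblast and smooth muscle markers 9 fell, with sums of 2334.6 and 2515.1 against 1050.6 and 1346.8. Of 6 endothelial markers 3 fell, with sums of 20.9 and 20.5 against 12.4 and 13.7. Of 6 erythroid markers 3 were tested and all 3 fell, with sums of 118 and 93.1 against 13.1 and 27.1. Of these, Hba-a2 and Hbb-bs reached the level of the filter in both wild-type libraries but not in both knockout ones. The wild-type counts of Hba-a1 and Hba-a2 were fractional, so reads could be split between them and their falls may not be separate. In bulk RNA, fewer cells of a type and less RNA per cell cannot be told apart, and many of these cells express NF-κB genes, so the part of such shifts in the results below was not tested.

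In the knockout some genes of the family rose, 1 fell and the others were not called; differences between the genes' changes were not tested. The inhibitor Nfkbia and the nuclear genes Nfkbiz and Bcl3 were 2.67-fold, 2.71-fold and 2.18-fold higher, and Nfkbib was 1.63-fold higher. Relb was lower, at 0.711 times its wild-type level. The subunits Nfkb1, Nfkb2, Rela and Rel and the inhibitor Nfkbie did not pass the test. Fold changes are on the log2 scale as knockout minus wild type, each given with its standard error, from edgeR's quasi-likelihood test on counts, and a gene passed at a Benjamini-Hochberg adjusted p under 0.05 over all tested genes. Of the 10 genes, 4 rose and 1 fell, 5 in all, while 43.7% of all tested genes passed (23.0% rose and 20.8% fell). The number of genes called in the family is thus near the background. Its median log2 fold change was 0.53, against -0.002 over all tested genes. The FPKM of the groups did not overlap for 5 of the 10 genes, beside 73.0% of all tested genes. The log2 fold changes of Nfkbia and Nfkbiz were each at the 96.0 percentile of tested genes, Bcl3 at the 94.1, and Relb at the 22.3.

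**Figure D1:**
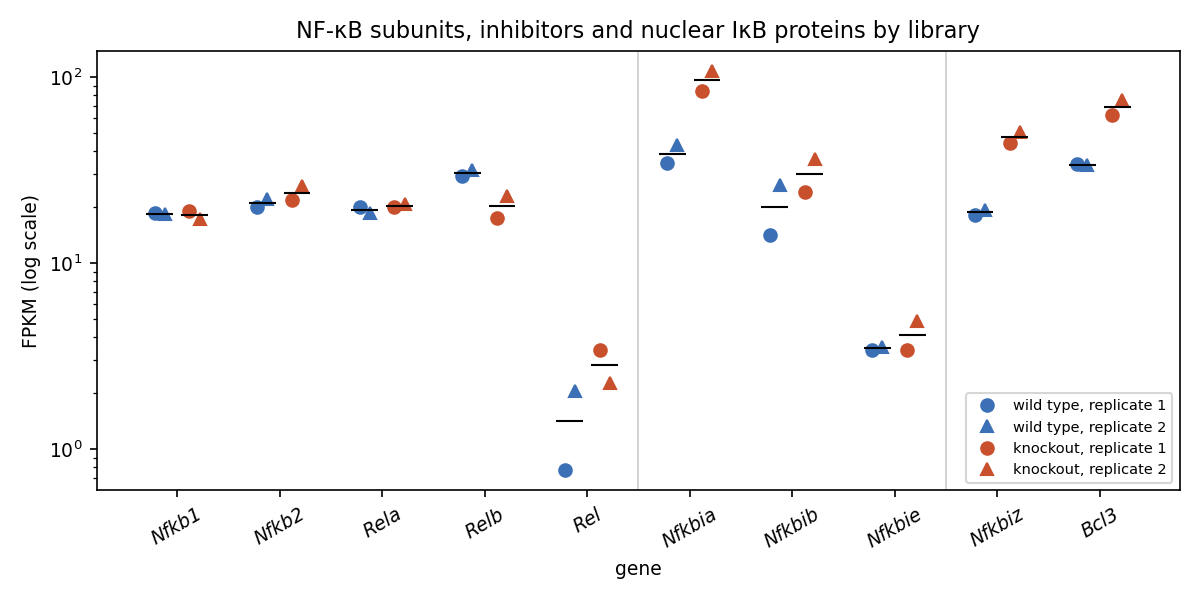
FPKM of each of the 10 genes (log axis) in the 2 wild-type (blue) and 2 knockout (red) libraries; circles are replicate 1, triangles replicate 2, and black lines group means. The groups of Nfkbia, Nfkbiz and Bcl3 are wide apart with knockout above, Relb has wild type above, and Nfkb1, Nfkb2, Rela, Nfkbib and Nfkbie overlap.

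Among the subunits, Rela encodes RelA (p65), which carries the activation domain of the classical dimer. Its FPKM, a count scaled to transcript length and library size, was 20.06 and 18.59 in the wild-type libraries against 19.99 and 20.75 in the knockout ones. The groups overlapped, and the log2 fold change was 0.18 ± 0.10 (edgeR adjusted p = 0.187). On summed counts the ratio was 1.13 with an exact binomial 95% interval of 1.01 to 1.27, which covers counting error only.

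Nfkb1 encodes p105, the precursor of p50. It had an FPKM of 18.49 and 18.38 in the wild-type libraries against 19.05 and 17.17 in the knockout ones. The knockout values lay on either side of the wild-type ones, and the gene did not pass (log2 fold change 0.08 ± 0.10, edgeR adjusted p = 0.561). Its sign depended on the scaling: it was -0.025 with library totals alone, and -0.026 with limma on log2(FPKM + 1). Scaling by library totals also moved the median of all tested genes from -0.002 to -0.103 and the share of higher genes among those called from 52.5% to 42.4%. The ratio of summed counts was 1.05, with a counting interval of 0.955 to 1.16.

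Nfkb2 encodes p100, which is both a precursor of p52 and an inhibitor of RelB. Its FPKM was 20.14 and 22.1 in the wild-type libraries against 21.72 and 25.84 in the knockout ones. The groups overlapped on this scale, and the gene did not pass (log2 fold change 0.27 ± 0.11, edgeR adjusted p = 0.0796). Without knockout replicate 1 it was 0.38 and passed (adjusted p = 0.029), and without knockout replicate 2 it was 0.15 (adjusted p = 0.397). By the GENCODE annotation of GRCm38, 299 bases of its exons overlap exons of Psd on the other strand, which fell by 1.04 on the log2 scale, and 531 bases overlap a second opposite-strand gene that was not analysed here. No source used here says whether the counting used strand, so reads of these stretches cannot be told apart.

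Relb encodes the subunit that pairs with p52 in the noncanonical route. It was the subunit with the highest mean FPKM in wild type, at 29.58 and 31.5, and stood at 17.57 and 22.86 in knockout. Both knockout libraries were below both wild-type libraries, while 73.0% of all tested genes had groups without overlap. Relb fell by 0.49 on the log2 scale with a standard error of 0.13 (edgeR adjusted p = 0.0152). This call was lost without wild-type replicate 2 (-0.45, adjusted p = 0.0656), without knockout replicate 1 (-0.32, adjusted p = 0.0812), in DESeq2 (-0.48, adjusted p = 0.057) and with limma on unfiltered FPKM (-0.58, adjusted p = 0.0565). The ratio of Relb to Rela FPKM was 1.47 and 1.69 in the wild-type libraries against 0.879 and 1.1 in the knockout ones.

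Rel encodes c-Rel, a subunit best known from lymphocytes and myeloid cells. It had only 10 and 28 counts in the wild-type libraries against 48 and 32 in the knockout ones, the lowest level of the family, with FPKM of 0.77 and 2.06 against 3.42 and 2.26. The groups did not overlap, as was so for 73.0% of all tested genes, but the wild-type libraries differed more from each other than wild-type replicate 2 differed from knockout replicate 2. Rel did not pass (log2 fold change 1.10 ± 0.43, edgeR adjusted p = 0.0696). The value was 0.55 without wild-type replicate 1 and 1.98 without wild-type replicate 2, where it passed (adjusted p = 0.0082), as it did without knockout replicate 2 (1.37, adjusted p = 0.0229). On summed counts the ratio was 2.14, with a counting interval of 1.44 to 3.23. The T cell and macrophage markers given above rose beside it, and their part in the Rel values was not tested.

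Nfkbia, which encodes the fast-turning inhibitor IκBα, had the highest FPKM of the 10 genes in each group. FPKM was 34.46 and 42.91 in the wild-type libraries against 84.55 and 108.22 in the knockout ones. The lower knockout library was above the higher wild-type library, and the gene rose by 1.42 ± 0.15 on the log2 scale (edgeR adjusted p = 9.13e-05). Its promoter window carries the κB match shown above. With each library left out in turn, the log2 fold change lay between 1.24 and 1.59 and passed. Tissue handling can also induce immediate-early genes. Of 11 such genes 8 rose and 1 fell, beside 23.0% and 20.8% of all tested genes. Their summed FPKM was 440 and 465 in the wild-type libraries against 520 and 562 in the knockout ones. Fos, the highest of them in wild type, was the 1 that fell, by 0.64 on the log2 scale (edgeR adjusted p = 0.000765). Jun and Ier2 were not called. The part of immediate-early genes in the Nfkbia, Nfkbiz and Bcl3 values was not tested.

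Nfkbib encodes IκBβ, an inhibitor of slower turnover. It had 138 and 192 counts in the wild-type libraries against 255 and 273 in the knockout ones, without overlap, and rose by 0.70 ± 0.15 on the log2 scale (edgeR adjusted p = 0.00522). The deposited transcript lists differ for this gene: those of replicate 1 hold 1 transcript and a length of 1945 bases, and those of replicate 2 hold a second transcript and lengths of 1412.68 and 1388.92. FPKM is therefore comparable only within a replicate number, where it went from 14.1 to 24.27 in replicate 1 and from 26.15 to 36.34 in replicate 2. Limma on log2(FPKM + 1), which mixes these lengths, did not call it (0.60, adjusted p = 0.15). Its exons overlap those of Ccer2 on the other strand by 314 bases, and Ccer2 had 1 count in wild-type replicate 1 and 0 in the other 3 libraries.

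Nfkbie encodes IκBε and was low, at 42 and 45 counts in the wild-type libraries against 45 and 65 in the knockout ones. Its FPKM was 3.43 and 3.55 against 3.4 and 4.87, so the groups overlapped. It did not pass (log2 fold change 0.36 ± 0.26, edgeR adjusted p = 0.288; 0.085 without knockout replicate 2), and the ratio of summed counts was 1.28 with a counting interval of 0.961 to 1.72. The match in its promoter window and those of Nfkb2 and Rel thus stand before genes that were not called.

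Nfkbiz encodes IκBζ, a nuclear protein that binds p50 and is needed for a set of late inflammatory genes. Its FPKM was 18.11 and 19.39 in the wild-type libraries against 44.16 and 50.64 in the knockout ones. The spread within each group was small beside the gap between them, and the gene rose by 1.44 ± 0.11 on the log2 scale, with the smallest p of the family (edgeR adjusted p = 1.16e-05). Counts went from 334 and 371 to 873 and 1010.

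Bcl3 encodes a nuclear IκB protein that works with p50 or p52 dimers. Its FPKM was 34.14 and 33.57 in the wild-type libraries against 62.43 and 75.38 in the knockout ones. The knockout libraries were both well above the nearly equal wild-type ones, and Bcl3 rose by 1.13 ± 0.11 on the log2 scale (edgeR adjusted p = 7.53e-05). Its exons overlap those of Gm16175 on the other strand by 55 bases, and that gene was not analysed here.

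**Figure D2:**
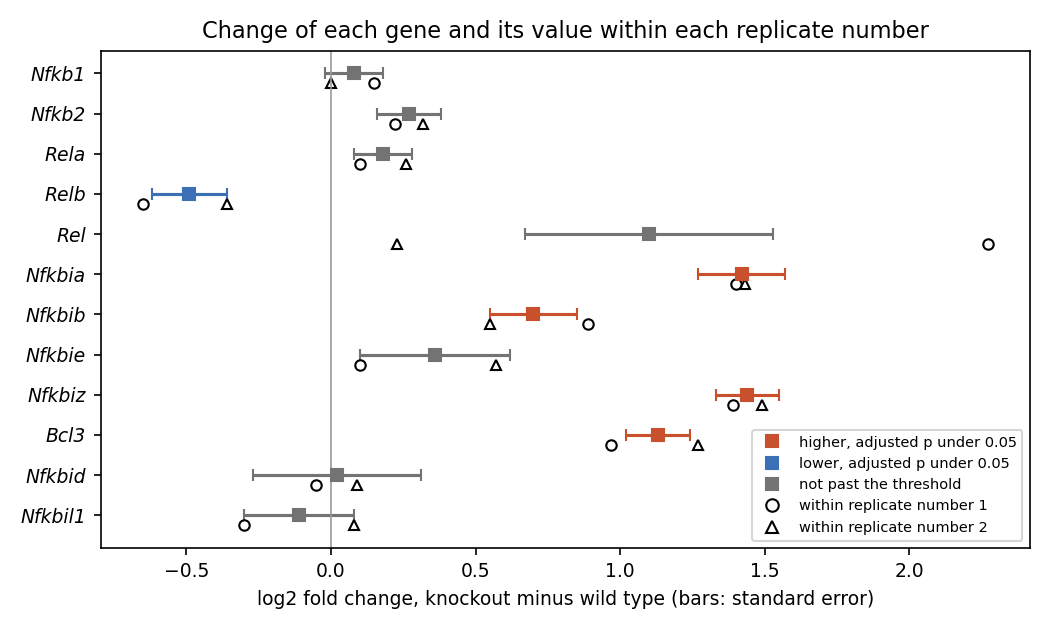
Log2 fold change, knockout minus wild type, of the 10 genes and of Nfkbid and Nfkbil1 (squares, with standard error bars), coloured by the edgeR call; open circles and triangles below each square are the log2 ratios within replicate numbers 1 and 2. Nfkbia, Nfkbiz and Bcl3 lie between 0.97 and 1.49 by every measure, while the 2 values of Rel are 2.27 and 0.23.

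Because the tables of replicate 1 and those of replicate 2 used different transcript lists, each genotype ratio was also taken within a number, on TMM-scaled counts. For Nfkbia the log2 ratio was 1.40 in replicate 1 and 1.43 in replicate 2. For Nfkbiz it was 1.39 and 1.49, and for Bcl3 0.97 and 1.27. Nfkbib gave 0.89 and 0.55. Relb was lower in both numbers, at -0.65 and -0.36. Of the genes that did not pass, Nfkb2 gave 0.22 and 0.32 and Rel 2.27 and 0.23. The genes that passed had the same direction within each number. On these counts their groups did not overlap, so any pairing of libraries gives that direction and it adds no separate support.

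The other genes of the IκB-like family did not pass. Nfkbid, whose product IκBNS is nuclear like IκBζ and Bcl-3, had 27 and 27 counts in the wild-type libraries against 26 and 28 in the knockout ones, with a log2 fold change of 0.02 ± 0.29 (edgeR adjusted p = 0.96). The ratio of its summed counts was 1.02, with a counting interval of 0.684 to 1.51. Nfkbil1 had a log2 fold change of -0.11 ± 0.19 (edgeR adjusted p = 0.685).

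The levels of the genes were compared as FPKM, which is scaled per length. In wild type the order of mean FPKM was Nfkbia, Bcl3, Relb, Nfkb2, Nfkbib, Rela, Nfkbiz, Nfkb1, Nfkbie and Rel, from 38.7 to 1.42. Neighbours from Nfkb2 down to Nfkb1 did not differ beyond their spread. In knockout the order was Nfkbia, Bcl3, Nfkbiz, Nfkbib, Nfkb2, Rela, Relb, Nfkb1, Nfkbie and Rel, from 96.4 to 2.84. Nfkbiz moved from the seventh to the third place and Relb from the third to the seventh, while the place of Nfkbib mixes 2 deposited lengths. In knockout the pairs Nfkbib and Nfkb2, Rela and Relb, Relb and Nfkb1, and Nfkbie and Rel did not differ beyond their spread.

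The summed FPKM of the 5 subunits was 89.0 and 92.6 in the wild-type libraries against 81.7 and 88.9 in the knockout ones. The 3 cytoplasmic inhibitors summed to 52.0 and 72.6 in wild type against 112 and 149 in knockout. Nfkbiz and Bcl3 together went from 52.2 and 53.0 to 107 and 126. Subunits made up 46.1% and 42.5% of the family's summed FPKM in wild type against 27.2% and 24.4% in knockout. The ratio of inhibitor to subunit transcripts was 0.684 ± 0.14 (SD, n = 2) in wild type and 1.53 ± 0.22 (SD, n = 2) in knockout, without overlap, a log2 difference of 1.16. Within replicate 1 it went from 0.584 to 1.37, and within replicate 2, whose tables use a shorter Nfkbib, from 0.784 to 1.68. An exact two-sided permutation test of 2 libraries against 2 cannot go below 0.33, so no test is given. With Nfkbia left out of the sum, the log2 difference was 0.63. These are transcript levels, and protein amounts were not measured.

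**Figure D3:**
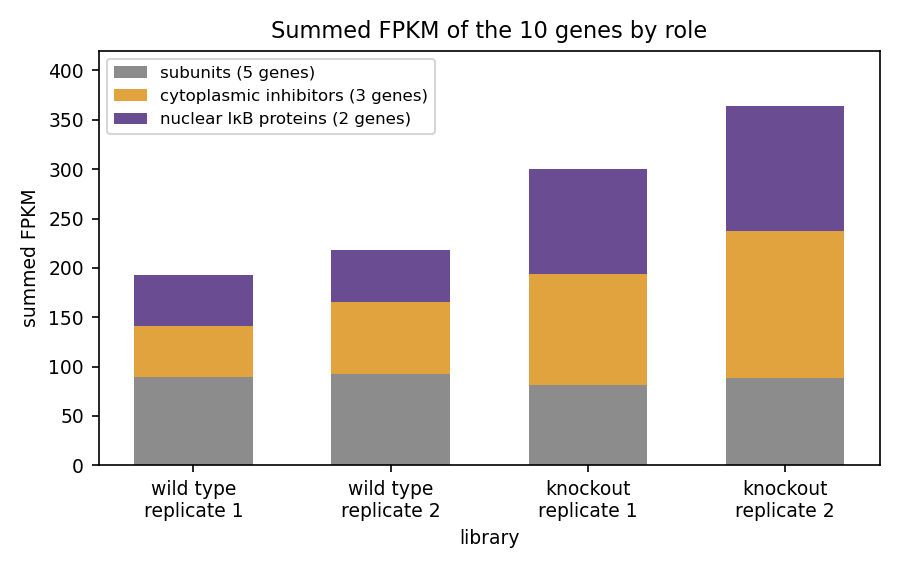
Summed FPKM of the subunits (grey), cytoplasmic inhibitors (yellow) and nuclear IκB proteins (purple) in each of the 4 libraries, stacked from 0. The grey part stays between 81.7 and 92.6, while the yellow and purple parts are larger in both knockout libraries.

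Upstream of the inhibitors stand the IκB kinase (IKK) complex and the kinases that activate it. Of 12 genes listed for them, 3 rose and 1 fell, beside 23.0% and 20.8% of all tested genes, which is near the background. Their median log2 fold change was 0.09. The core IKK genes Chuk, Ikbkb and Ikbkg, with log2 fold changes of 0.24, 0.11 and -0.20, were not called. The IKK-related kinases Ikbke and Tbk1 rose by 0.68 and 0.36, and Map3k7, which encodes TAK1, by 0.39, while its partner Tab1 fell by 0.49 (edgeR adjusted p = 0.00221, 0.0374, 0.0411 and 0.0173). Map3k3, at -0.39, was not called. These counts moved with the setting: over the 14 alternatives of scaling, filter, tool and libraries, 1 to 4 rose and 0 to 3 fell. With library totals alone 1 rose and 3 fell, with a median of -0.02, and without wild-type replicate 2 or without knockout replicate 1, 1 rose and 1 fell.

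Of 13 listed genes for IκB degradation and linear ubiquitin chains, 7 rose and none fell, beside 23.0% and 20.8% of all tested genes, with a median of 0.29. They were the general ubiquitin and NEDD8 genes Nedd8, Rbx1, Ube2n, Uba3, Ube2v1, Ube2d3 and Skp1, at 0.29 to 0.60 on the log2 scale. The genes for the subunits that recognise phosphorylated IκB, Btrc and Fbxw11, had values of -0.43 and -0.23, and the linear ubiquitin genes Rnf31, Rbck1 and Sharpin had -0.19, 0.23 and 0.29. None of these 5 passed. Over the alternatives 3 to 9 of the list rose and 0 to 2 fell. With library totals alone 4 rose and 1 fell, as without knockout replicate 1, and without wild-type replicate 2, 4 rose and 0 fell. The transcript lists of Ube2v1 differ between replicate numbers.

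Of 18 negative regulators of the pathway other than the IκB genes, 8 rose and 1 fell, with a median of 0.33. Among the 8, Nlrc3 reached the level of the filter on low counts in both knockout libraries but not in both wild-type ones. The share called in either direction is near the 43.7% of all tested genes. By direction, 8 of 18 rose beside 23.0% of all tested genes, and 1 of 18 fell beside 20.8%. Tnip3, an A20-binding protein, rose from 5.28 ± 0.22 to 26.8 ± 2.12 FPKM (n = 2 per group; log2 fold change 2.44 ± 0.11, edgeR adjusted p = 8.56e-07). Zc3h12a, whose product Regnase-1 degrades inflammatory transcripts including that of Nfkbiz, rose by 1.99, and Tnfaip3, which encodes the deubiquitinase A20, rose by 0.82. Commd1, which promotes removal of RelA, rose by 0.51. Tnip1, another A20-binding gene, fell from 52.9 ± 2.08 to 29.2 ± 2.88 FPKM (n = 2 per group; edgeR adjusted p = 0.000299). Cyld and Otulin, 2 further deubiquitinases, were at 0.30 and 0.19 and were not called. Without wild-type replicate 2, 5 of the list rose and 1 fell, and DESeq2 called 4 higher and 1 lower.

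Of 34 ligands, receptors and adaptors above the pathway, 29 were tested, and 14 rose and 3 fell, beside 23.0% and 20.8% of all tested genes, with a median of 0.39. Over the alternatives 7 to 15 rose and 2 to 5 fell. The untested Lta, Il1a, Il17a, Il17f and Card9 had few reads. The receptor genes Tnfrsf1b and Tnfrsf1a had log2 fold changes of 2.31 and 0.97, and Tlr2 of 2.20, all called. Tnf, the cytokine, had 6 and 11 counts in the wild-type libraries against 115 and 120 in the knockout ones, and Nod2, a bacterial sensor, had 5 and 9 against 44 and 45. Il1r1, Card10 and Tlr5 were the 3 that fell, by 0.86, 0.91 and 2.90 on the log2 scale. Tnf and Nod2 reached the level of the filter on low counts in both knockout libraries but not in both wild-type ones, and Tlr5 the other way round.

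The noncanonical route, in which Relb acts, had 14 genes listed and 13 tested, of which 2 rose and 2 fell, with a median of 0.06. This is not more than the 23.0% and 20.8% of all tested genes. The receptors Tnfrsf12a and Ltbr rose by 1.15 and 0.44 on the log2 scale. The ligand Tnfsf12, which binds Tnfrsf12a, fell by 0.98, and the TNF receptor family gene Tnfrsf13c fell by 0.68 (edgeR adjusted p = 0.0188 and 0.0471). Tnfrsf11a had a log2 fold change of -0.21, and the kinase gene Map3k14 of -0.28. Neither passed. Tnfsf12 had 72.43 and 85.0 counts in the wild-type libraries against 28.0 and 49.64 in the knockout ones. Tnfrsf13c had 58.35 and 59.17 against 32.28 and 40.16. Both calls were lost without wild-type replicate 2 and without knockout replicate 1, which leave a single library in that group. In DESeq2, 2 genes of this list rose and 0 fell. With library totals alone the median was -0.04.

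Of 15 partners and modifiers of NF-κB in the nucleus, 3 rose and 4 fell, with a median of -0.18. These counts are near the 23.0% that rose and the 20.8% that fell among all tested genes. The acetyltransferase gene Ep300 fell from 16.2 ± 0.18 to 9.74 ± 0.24 FPKM (n = 2 per group; log2 fold change -0.64 ± 0.09, edgeR adjusted p = 0.000554). Setd7, a methyltransferase, fell by 1.13 and the deacetylase gene Sirt1 by 0.65. Cops5 rose by 0.68, and the deacetylase genes Hdac1 and Hdac3 by 0.30 and 0.38. With library totals alone, 1 rose and 5 fell, and without knockout replicate 1, 1 rose and 4 fell. DESeq2 called 1 higher and 3 lower.

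Of 41 known targets of NF-κB, 38 were tested, and 24 rose and 4 fell, beside 23.0% and 20.8% of all tested genes, with a median log2 fold change of 1.32. With each library left out in turn, 20 to 24 rose. Il6, Csf2 and Mmp9 were listed but had too few reads. The filter bears on this count: 9 of the 24 that rose, Cxcl1, Cxcl2, Cxcl10, Ccl2, Ccl5, Tnf, Bcl2a1a, Bcl2a1d and Lcn2, reached its level of 10 counts at the median library size in both knockout libraries but not in both wild-type ones. Over all 41, with limma on log2(FPKM + 1) and no filter, which shrinks low genes, the median was 0.70 and 21 rose. The nitric oxide synthase Nos2 and the chemokines Cxcl5 and Cxcl10 rose by 6.51, 4.97 and 4.68 on the log2 scale, the complement gene C3 by 1.99, and Tnf by 3.79. The transcript lists of Nos2 differ between replicate numbers. Cx3cl1, Tnip1, Cd83 and Plau fell by 0.75, 0.78, 1.13 and 0.72. Birc3, Gadd45b and Csf1, at 0.02, 0.02 and 0.01, did not pass. Tnf, Il1b, Tnip1, Tnfaip3, Birc3 and other genes stand in more than 1 list, so the list counts overlap.

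Of 16 late genes that have been tied to IκBζ or Bcl3, 14 were listed and 8 had enough reads to test. Of these 8, 7 rose and 1 fell, beside 23.0% and 20.8% of all tested genes. The protease inhibitor Slpi was at 15.4 ± 2.0 FPKM in wild type and at 466 ± 55.2 in knockout (n = 2 per group). S100a8, a calprotectin subunit, rose by 5.51 on the log2 scale and is also a neutrophil gene. Edn1, which encodes endothelin-1, fell from 20.4 ± 2.16 to 1.12 ± 0.59 FPKM (n = 2 per group; log2 fold change -4.08 ± 0.24, edgeR adjusted p = 3.05e-06). Csf3, Csf2, Il6, Il12b, Camp and Cyp1a1 had too few reads to test, so the count is of genes that passed a filter on low counts. Lcn2, S100a8 and S100a9 reached its level in both libraries of the knockout group only, and Edn1 in both of the wild-type group only.

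**Figure D4:**
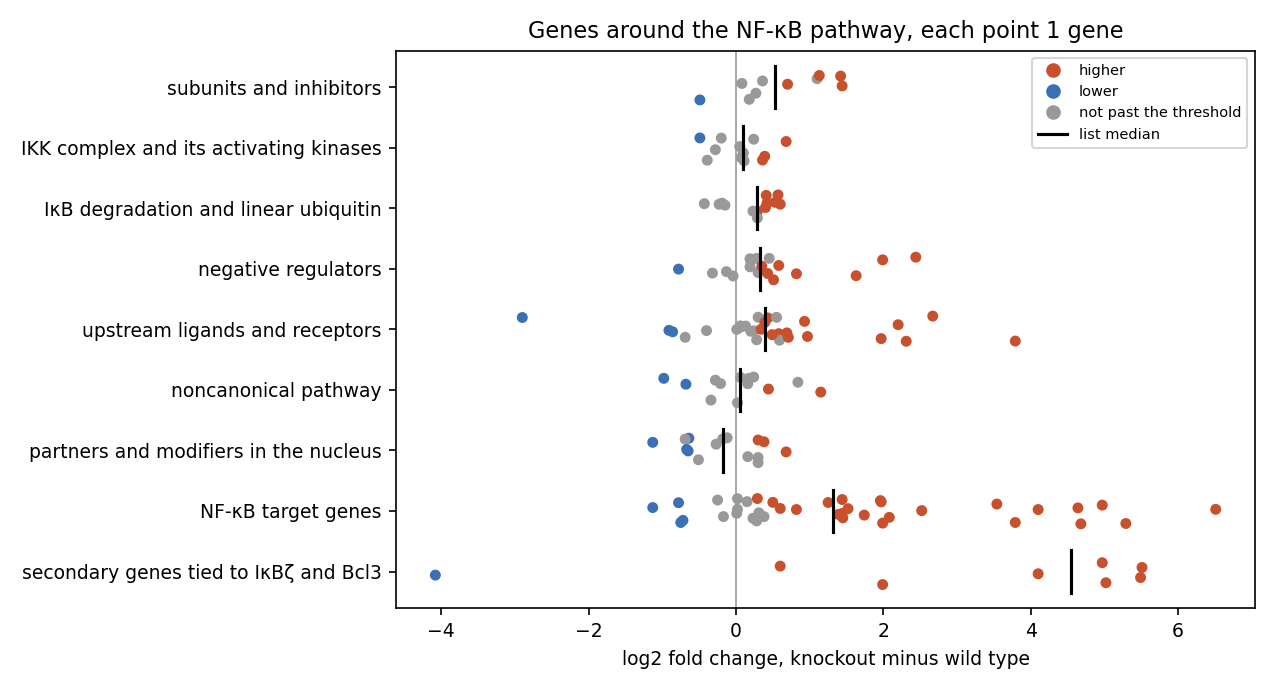
Log2 fold change, knockout minus wild type, of every tested gene in each list (1 point per gene, coloured by the edgeR call), with the list median as a black bar. Medians run from -0.18 for nuclear partners to 1.32 for NF-κB targets and higher for the small list tied to IκBζ and Bcl3, which holds the low outlier Edn1.

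Nfkbiz, the gene of the family with the smallest p, was set against all tested genes by the distance between centred profiles of log2(FPKM + 1) over the 4 libraries. The nearest were Bcl2a1a, Ly6d, Atg9b, Pde9a and Sgk2, at distances of 0.0528 to 0.0736. Bcl2a1a, a copy of an anti-apoptotic NF-κB target, was at 1.02 FPKM in wild type and 4.08 in knockout; it has near-identical copies, so its reads could be split among them. Pde9a was the most abundant, at 94.9 and 233. With 4 libraries in 2 groups, the measure mainly reflects the size of the genotype difference.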

How the data were processed

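Per the file headers, each of the 4 tables gives a gene identifier, transcripts, a length (unit other), an expected count and an FPKM value. The deposited expected counts are estimated counts, and those of the 10 genes were all whole. The deposited FPKM values scale counts to length and library. Per the submitters' processing notes, Bowtie2, BWA and the human build hg19 were named, with no role; the counting tool and its annotation are not given in the sources used here. Identifiers were matched to mouse RefSeq symbols (GRCm38.p6), 18820 of 18872. Unlisted genes were taken as 0.

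The rounded expected counts went into edgeR 4.0.16 (R 4.3.3) with its filterByExpr filter, TMM factors and a two-sided quasi-likelihood F test without a block; the fit was checked on simulated data. DESeq2 1.42.0 and limma 3.58.1 served as alternatives. Libraries of a group differed beyond sampling noise (chi-square per degree of freedom 2.22 and 2.99) and were kept apart. The common dispersion gave a biological coefficient of variation of 12.9%. The 10 genes and the lists were chosen with earlier results of these data known, and the motif search was added after the values were seen. Named genes were the 10, Nfkbid, Nfkbil1, Ezh2, up to 5 of each list by p, and the 2 most abundant markers of each cell list; others were named after their values were seen, and some listed genes are not reported here by name. Intervals are Clopper-Pearson.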

Additional observations from a re-analysis of the deposited data

How the results depend on the processing

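Over the 14 alternatives, Nfkbia, Nfkbiz and Bcl3 kept their direction and passed in each, with log2 fold changes of 1.24 to 1.59, 1.29 to 1.53 and 0.99 to 1.25. Relb lost its call in 4 and Nfkbib in 3 of the 13 that tested it, both without a change of direction. Nfkb1, never called, changed sign in 5: -0.025 with library totals alone, -0.026, -0.027 and -0.026 with limma on log2(FPKM + 1), on log2(FPKM + 0.1) and unfiltered, and -0.0074 without knockout replicate 1 (-0.0074 to 0.16 with a library left out). The cause was not tested. The number of family genes called was 3 with limma on unfiltered FPKM and 5 to 6 with a library left out. Over all genes, 5950 were called, 3917 in DESeq2 and 4610 to 5764 with a library left out. The log2 difference of the inhibitor to subunit ratio ranged from 0.96 to 1.39 with a library left out, and was 0.63 without Nfkbia. With the replicate number as a block, 7 of the 10 genes were called, Nfkb2 (0.27, adjusted p = 0.00938) and Rel (1.10, adjusted p = 0.00267) being added, and 7403 of all genes. Same-numbered libraries deviated together (correlation 0.571 over genes, 0.555 over those with the same transcripts), but the labels do not say that numbers pair libraries. Depth bounds the precision of low genes: the counting interval of the ratio was 1.44 to 3.23 for Rel and 0.684 to 1.51 for Nfkbid.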
